A study of Homo sapiens with 131 samples.

Results

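The regions described here are the 40-kb bins of human chromosomes 4, 13 and 18, the chromosomes with the fewest protein-coding genes per length in this dataset, together with the genes that lie on them. Every bin of these chromosomes was taken, which gave 8758 of 56881 bins: 4594 on chromosome 4, 2345 on chromosome 13 and 1819 on chromosome 18. The remaining 48123 bins, on all other chromosomes of the table, served as the comparison. The same chromosomes held 5106 of the 45404 genes with RNA values and a copy state, 2543 on chromosome 4, 1357 on chromosome 13 and 1206 on chromosome 18. Single mid-S HAP1 cells, from a human near-haploid line derived from a chronic myeloid leukaemia line, were profiled by scRR-seq, which reads the DNA copy number and the total RNA of the same cell. The cells were not treated or edited. According to the labels, 63 mid-S cells were sequenced for both molecules and 5 G1 cells for DNA. Values of 56 mid-S cells are in the tables, and the 55 with a percentage replication score between 40 and 70% were used. They came from 1 biological experiment, so each cell was 1 unit and the tests describe these cells only.

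Chromosomes replicate in an order that is reproducible from cell cycle to cell cycle. Gene-dense, GC-rich and transcribed regions tend to replicate early in S phase, whereas gene-poor, AT-rich regions, often packed as heterochromatin at the nuclear periphery, replicate late. In a near-haploid cell a bin is 1-copy before and 2-copy after its replication, so a mid-S cell shows directly which regions are done and which genes have their second template. Large chromosomes with few genes carry long stretches of late-replicating DNA, often with long neuronal and cell-adhesion genes in them.

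The name gene-poor held in these tables for protein-coding genes. Chromosomes 4, 13 and 18 had 3.91, 3.37 and 3.55 protein-coding genes per Mb, the lowest values of the 20 chromosomes of the table, and 3.69 per Mb jointly, against 7.17 per Mb on the others. By all annotated genes, chromosomes 4 and 13 again had the lowest densities (13.8 and 14.5 per Mb), whereas chromosome 18 ranked 7 of 20 from the lowest at 16.6 per Mb. Their bins had a median GC content of 37.8%, against 39.9% in the other bins.

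Single genes on these chromosomes nevertheless were among the strongly expressed ones. The promoters below belong to the expressed gene with the highest median TPM (abundance per transcript length, scaled to a common total per cell) among the early-S genes and among the late-S genes of each chromosome. A gene was called early-S when it was 2-copy in more than 77.8% of the cells with a call, late-S when in at most 22.2%, and mid-S between. They are shown because they put the start site of a gene replicated early beside one replicated late on the same chromosome. The sequences are those of RefSeq (GRCh38.p14), from 250 bases before to 50 bases after the start, in the direction of the gene, with each CpG in capitals. RPS3A, TPT1 and RPL17 replicated early, at chr4:151099378-151099677 (plus strand), chr13:45341134-45341433 (minus strand) and chr18:49492416-49492715 (minus strand). WDR1, ARGLU1 and CNDP2 replicated late, at chr4:10116750-10117049 (minus strand), chr13:106568088-106568387 (minus strand) and chr18:74496113-74496412 (plus strand).
RPS3A: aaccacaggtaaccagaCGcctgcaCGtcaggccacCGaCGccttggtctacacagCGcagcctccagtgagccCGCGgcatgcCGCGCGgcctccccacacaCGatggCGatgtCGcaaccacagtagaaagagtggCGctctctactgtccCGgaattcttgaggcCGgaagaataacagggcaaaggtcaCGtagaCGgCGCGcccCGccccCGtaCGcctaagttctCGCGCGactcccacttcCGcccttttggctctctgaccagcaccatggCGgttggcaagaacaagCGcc
WDR1: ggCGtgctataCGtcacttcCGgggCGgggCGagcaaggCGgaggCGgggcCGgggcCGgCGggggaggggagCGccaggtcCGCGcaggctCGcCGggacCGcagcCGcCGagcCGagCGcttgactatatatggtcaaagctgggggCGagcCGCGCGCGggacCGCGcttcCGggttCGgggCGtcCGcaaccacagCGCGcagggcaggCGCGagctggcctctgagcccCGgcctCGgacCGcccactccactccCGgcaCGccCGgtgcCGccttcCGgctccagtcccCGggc
TPT1: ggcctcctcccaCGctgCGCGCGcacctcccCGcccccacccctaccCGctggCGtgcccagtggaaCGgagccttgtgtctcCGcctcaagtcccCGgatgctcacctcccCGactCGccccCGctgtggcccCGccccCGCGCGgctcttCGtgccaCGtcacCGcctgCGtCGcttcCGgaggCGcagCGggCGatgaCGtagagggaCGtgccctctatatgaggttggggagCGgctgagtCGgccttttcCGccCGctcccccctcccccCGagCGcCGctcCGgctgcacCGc
ARGLU1: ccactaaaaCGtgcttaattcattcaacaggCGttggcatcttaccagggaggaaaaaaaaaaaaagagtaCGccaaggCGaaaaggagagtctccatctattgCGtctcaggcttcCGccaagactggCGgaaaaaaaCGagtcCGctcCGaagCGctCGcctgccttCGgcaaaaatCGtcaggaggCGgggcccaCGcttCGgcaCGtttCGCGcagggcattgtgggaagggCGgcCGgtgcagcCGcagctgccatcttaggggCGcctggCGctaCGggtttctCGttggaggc
RPL17: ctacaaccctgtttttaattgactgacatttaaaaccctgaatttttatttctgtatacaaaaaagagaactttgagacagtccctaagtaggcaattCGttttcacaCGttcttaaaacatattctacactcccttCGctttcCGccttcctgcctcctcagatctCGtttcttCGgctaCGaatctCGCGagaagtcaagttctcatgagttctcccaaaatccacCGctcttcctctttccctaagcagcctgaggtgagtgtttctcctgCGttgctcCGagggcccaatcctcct
CNDP2: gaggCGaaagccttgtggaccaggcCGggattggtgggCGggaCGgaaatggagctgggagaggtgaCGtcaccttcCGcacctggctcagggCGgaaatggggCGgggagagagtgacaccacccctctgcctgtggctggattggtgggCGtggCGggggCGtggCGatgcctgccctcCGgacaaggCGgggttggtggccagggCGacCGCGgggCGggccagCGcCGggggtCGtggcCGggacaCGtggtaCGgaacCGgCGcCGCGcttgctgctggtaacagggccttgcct

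Of these 3 late genes, 2 held more CpG at the start site than the early gene of their chromosome. RPS3A had 29 CpG and a GC content of 63%, and WDR1 had 44 and 77%. TPT1 had 37 CpG and 74% GC, and ARGLU1 had 27 and 57.7%. RPL17 had 12 CpG and 44.7% GC, and CNDP2 had 28 and 71%. The letters TATAAA, searched on both strands, were in none of the 6 windows and in 11.5% of all 35116 promoters of the table, 15.3% of the 3290 on chromosomes 4, 13 and 18 and 11.1% of the others. Of these, 2091 promoters were matched to genes of chromosomes 4, 13 and 18, and a gene with several promoters was counted once for each. Over all of them the median was 22 CpG for 1092 promoters of early-S genes and 9 for 301 promoters of late-S genes. Among promoters of expressed genes the median was 26 CpG for 711 of early-S, 25 for 310 of mid-S and 26 for 86 of late-S genes. Among promoters of genes not called expressed it was 10, 5 and 5 CpG. In this count promoters of expressed late-S genes stood nearer to those of expressed early-S genes than to those of late-S genes not expressed. This is a description without a test.

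The cells carried RNA of cycling cells: PCNA, MKI67, MCM2, CCNA2 and RRM2 were above 0 in 55 of 55 cells. The markers of blood lineages given here were absent or scattered, with MPO and CD3E at 0 in all cells, PTPRC above 0 in 1 cell and CD34 in 26 cells. BCR and ABL1, the partners of the fusion gene of the parent leukaemia, were detected in 52 and 48 cells. Cells numbered above 65 (27 cells) and up to 65 (28 of the 29 cells used) differed as sets. Mitochondrial RNA took 2.57 to 5.55% in the cells above 65 and 4.98 to 18.3% in the cells up to 65, and the median unspliced total was 568578 against 812254 counts. The cut at 65 was chosen because earlier work on these data had shown these differences, so they are not an independent finding. The labels name no batch. Library set is used below only as a name for these ranges of cell numbers. Values within the sets are given where a result depends on them. Read depth of the DNA libraries is unknown here, and unspliced totals ran between 425181 and 1353931 counts per cell.

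One cell, cell 91, stood apart on chromosome 18. None of its 1438 bins on the long arm (18q) had a copy call, whereas the other 54 cells lacked a call in at most 1.53% of these bins. On the short arm (18p) cell 91 lacked a call in 3 of 381 bins and was 2-copy in 62.7% of the called ones. Its replication score was 67.2%, the highest of the 55 cells. Its percentage for chromosome 18 therefore rests on 18p only.

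RNA of the same arm was low in the same cell. Genes of 18q gave 0.0859% of the spliced TPM of cell 91, against 1.14% ± 0.0756 (SD, n = 54) in the other cells, whose lowest value was 0.963%. The cell thus stood at 7.52% of the mean of the others, far outside their range. In unspliced RNA the share was 0.309% (2148 of 695882 counts, 95% Wilson interval 0.296 to 0.322%, counting error only), against 1.9% ± 0.325 in the other cells, with 1.41% the lowest. For 18p the spliced share was 0.43%, against 0.532% ± 0.0641, and lay within the range of the others, whose lowest value was 0.407%.

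Strongly expressed 18q genes showed this one by one. RPL17, a protein of the large ribosomal subunit, had 51.2 TPM in cell 91, against 789.8, 1498 and 2486 TPM as the lowest, median and highest of the other 54 cells. ATP5F1A, a subunit of the mitochondrial ATP synthase, had 13.9 TPM, against a lowest value of 309.9 and a median of 818.0 TPM. TXNL4A, a component of the spliceosome, was at 0, against a lowest value of 57.3 TPM. NARS1, which charges the asparagine tRNA, ACAA2, an enzyme of fatty acid oxidation, and RPRD1A were also at 0. Of 29 genes of 18q present in all other cells, 10 were at 0 in cell 91 and 21 were below every other cell, against 1 and 2 of 18 genes on 18p, 0 at 0 of 51 genes on chromosome 13, and 3 and 33 of 2558 genes on the other chromosomes. Some RNA remained, since 74 of 141 genes of 18q expressed in spliced RNA were above 0, against a median of 122 in the other cells. In unspliced RNA 147 of 193 expressed genes of 18q were above 0 in cell 91, within the range of the others (131 to 176). Of 28 genes of 18q with unspliced RNA in all other cells, 1 was at 0 in cell 91 and 4 were below every other cell. On the other chromosomes these were 2 and 8 of 1932 genes. DHFRP1, a processed pseudogene, had 116.6 TPM in cell 91, above the median of 60.3 TPM of the others. Whether the arm was absent from this cell was not tested. The cell was singled out after its values had been seen, and results are given with and without it where they differ.

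**Figure D1:**
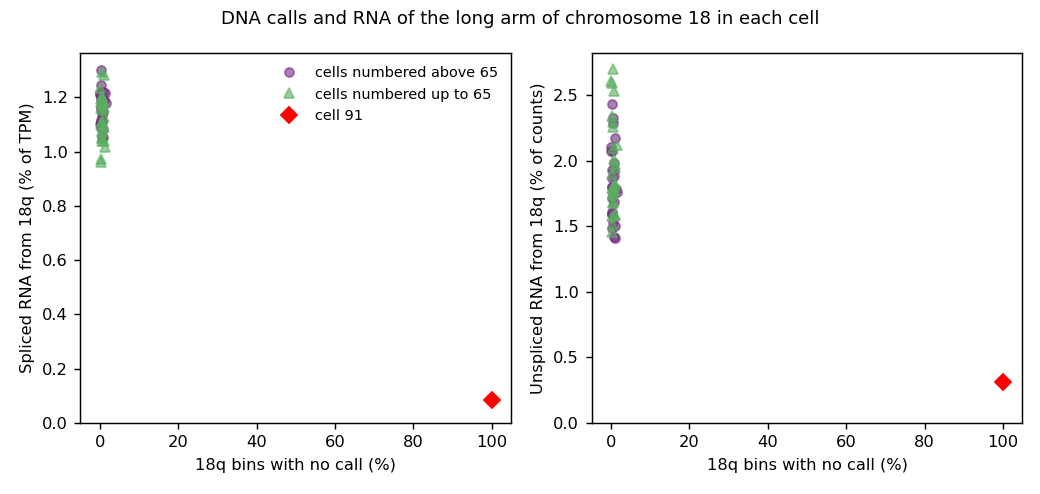
Share of RNA from genes of 18q in each of the 55 cells, plotted against the percent of 18q bins without a copy call, for spliced TPM and for unspliced counts, with cells numbered above 65 (circles), up to 65 (triangles) and cell 91 (diamond). Cell 91 stands alone, without a called bin and at 0.0859% of the spliced TPM, while the other 54 cells hold at least 0.963%.

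Chromosomes 4, 13 and 18 were jointly less replicated than the other chromosomes taken as a whole within the same cells. Their bins were 2-copy in 33.5, 49.5 and 65.9% (lowest, median and highest cell), against 40.3, 55.7 and 67.8% for the other chromosomes. The means were 49.2% ± 8.58 and 54.6% ± 7.69 (SD, n = 55), a difference of -5.39 percentage points (SE 0.442), and the value was lower in 52 of 55 cells (two-sided permutation test, signs of within-cell differences flipped, p = 1e-05, the smallest that 100000 resamples can give). The ranges over cells overlapped, while the difference within a cell was nearly always of one sign. It was -5.44 without cell 91. When only bins called in every cell were kept, which drops 18q altogether because of cell 91, it was -3.06, and -3.95 without cell 91 and with the bins called in every other cell.

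A lag of this size was not particular to them. By mean percent 2-copy, chromosomes 18, 4 and 13 ranked 3, 7 and 9 of 20 from the lowest, and among the others chromosome 21 stood at 38.7%, chromosome 8 at 43.7%, chromosome 10 at 46.4%, chromosome 5 at 47.4% and chromosome 11 at 48.1%.

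The lag was not equal on the 3 chromosomes. Chromosome 18 had the lowest value, 46.4% ± 8.64, with 25.7, 47.1 and 63.8% as the lowest, median and highest cell, and was 8.20 percentage points below the other chromosomes (-8.20, SE 0.718, lower in 52 of 55 cells, permutation p adjusted over the 3 chromosomes 1.5e-05). Without cell 91 this was -8.26, and with only the bins called in every cell, all on 18p, it was -2.13. Chromosome 4 followed with 48.7% ± 9.50, with 32.1, 48.5 and 68% as the lowest, median and highest cell, and a difference of -5.83 (SE 0.561, lower in 50 of 55 cells, adjusted permutation p = 1.5e-05), or -3.82 with only the bins called in every cell.

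Chromosome 13 was closest to the rest. It was 2-copy in 52.2% ± 8.59 of its bins, with 35.3, 53.3 and 68.6% as the lowest, median and highest cell, a difference of -2.38 (SE 0.578, lower in 40 of 55 cells, adjusted permutation p = 0.00019). This call was lost when the early-replicating chromosomes 17, 19 and 22 were left out of the comparison (-1.13, adjusted permutation p = 0.0537) and in the cells numbered up to 65 alone (-1.43, adjusted permutation p = 0.0684), and the value was -3.97 without the bins near chromosome ends or the centromeric gap. Pairwise, chromosome 13 was above chromosome 18 by 5.82 (SE 0.776, 47 of 55 cells, adjusted permutation p = 1.5e-05) and above chromosome 4 by 3.45 (SE 0.680, 43 of 55 cells, adjusted permutation p = 1.5e-05). Chromosome 4 was above chromosome 18 by 2.37 (SE 0.791, 36 of 55 cells, adjusted permutation p = 0.00423), a call that was lost in the cells numbered above 65 alone (1.91, adjusted permutation p = 0.0821). With only the bins called in every cell, which leaves 18p alone of chromosome 18, the differences of chromosomes 13 and 4 from it were 0.488 (adjusted permutation p = 0.655) and -1.69 (0.207), and without cell 91, with bins called in every other cell, 5.36 and 2.99. The order of the chromosomes did not follow protein-coding gene density, which was lowest on chromosome 13.

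The difference between the gene-poor and the other chromosomes was below 0 on average in both library sets, and no test between the sets passed its threshold. It was -6.04 ± 3.27 in the 27 cells numbered above 65 and -4.77 ± 3.23 in the 28 cells up to 65 (difference -1.27, set labels permuted, p = 0.156). For chromosome 13 alone it was -3.37 and -1.43 (difference -1.93, permutation p = 0.0955, adjusted 0.287).

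**Figure D2:**
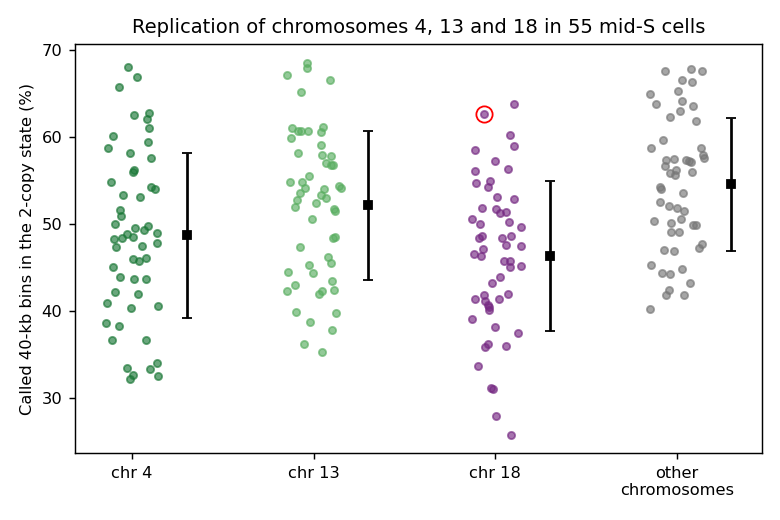
Percent of called 40-kb bins in the 2-copy state in each of 55 mid-S cells for chromosomes 4, 13 and 18 and all other chromosomes, with the mean and SD. The gene-poor chromosomes average 48.7, 52.2 and 46.4%, against 54.6% for the others.

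Bins were then sorted by their RT, the share of called cells in which a bin was 2-copy. Bins above 77.8% were called early-S, bins up to 22.2% late-S and those between mid-S. Of the 8758 bins, 2667 (30.5%) were early-S, 3261 (37.2%) mid-S and 2830 (32.3%) late-S, against 39.0, 32.2 and 28.8% on the other chromosomes. The gap lay more in a lack of the earliest bins than in an excess of the latest. Bins that were 2-copy in every called cell made up 4.70% (412 bins), against 9.48% elsewhere, while those 2-copy in no cell made up 7.09% (621 bins), against 7.27%. Chromosome 18 had 26% early-S and 35.6% late-S bins, chromosome 4 had 29.7 and 31.2%, and chromosome 13 had 35.4 and 31.9%. Bins share cells and neighbours, so these shares are descriptions without a test.

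**Figure D3:**
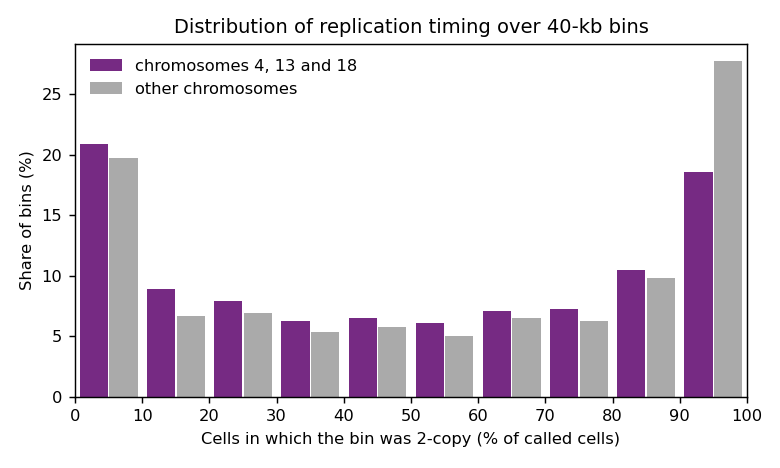
Distribution of bin RT (percent of called cells that are 2-copy, in steps of 10%) for chromosomes 4, 13 and 18 and for all other chromosomes, as a percent of the bins of each. The step of 90 to 100% holds 18.6% of the bins of the gene-poor chromosomes and 27.8% of the others, and the step of 0 to 10% holds 20.9 and 19.8%.

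GC content and starts of protein-coding genes fell in the same order over the pooled bins. Median GC content was 39.9% in early-S, 37.3% in mid-S and 36.3% in late-S bins, and protein-coding genes started at 6.41, 3.43 and 1.33 per Mb. On chromosome 18 alone the late-S bins were not the lower in GC, with 38.3% in late-S and 38.1% in mid-S bins. Across bins, the Spearman correlation of GC content with RT was 0.421, and 0.475, 0.486 and 0.261 on chromosomes 4, 13 and 18, against 0.359 across the other bins. Neighbouring bins are not independent, so this is given as a description.

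Runs of late bins had median lengths of 0.92, 0.78 and 1.24 Mb on chromosomes 4, 13 and 18, and runs of early bins of 0.76, 0.68 and 1.06 Mb, but the longest were far longer. The longest late run, 9.64 Mb at chr13:100840001-110480000, had a mean RT of 5.03% and held 100 genes, of which 13 were expressed. Among them were ARGLU1, TPP2, TEX30, BIVM, POGLUT2 and ERCC5, the last of which encodes the endonuclease XPG of nucleotide excision repair. The long late run of chromosome 18, 7.36 Mb at chr18:68760001-76120000 with a mean RT of 4.83%, held CNDP2, TIMM21 and RTTN. A run of 5.28 Mb at chr13:85520001-90800000 had a mean RT of 2.33% and 1 expressed gene, SLITRK5, a neuronal transmembrane protein. On chromosome 4 the longest late run, 4.04 Mb at chr4:8600001-12640000 with a mean RT of 4.2%, held WDR1, while 3.76 Mb at chr4:129520001-133280000 held no expressed gene.

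The longest early runs also lay on chromosome 13. They were 6.28 Mb at chr13:94040001-100320000 (mean RT 96.2%), with IPO5, TM9SF2 and STK24, and 5.96 Mb at chr13:48000001-53960000 (91.2%), with ITM2B, RNASEH2B and RB1, the retinoblastoma tumour suppressor. The longest early run of chromosome 4 was 3.92 Mb at chr4:38920001-42840000 (95%), where 23 of 87 genes were expressed, among them RPL9, UCHL1 and RFC1. A run of 3.32 Mb at chr4:440001-3760000 was denser still, with 41 of 97 genes expressed, among them the ATP synthase subunit ATP5ME, the histone methyltransferase NSD2, the histone mRNA binding protein SLBP and TACC3 of the mitotic spindle. Chromosome 18 had no early run above 2.12 Mb, and the longest, chr18:48160001-50280000, held RPL17, ACAA2 and DYM. A gap of more than 200 kb between bins ended a run.

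Chromosome arms and ends differed from each other within the same chromosome. The arm 4p was 2-copy in 41.3% ± 8.09 of its bins and 4q in 51.4% ± 10.5, although the last 3 Mb of 4p stood at 91.4% ± 8.51 and those of 4q at 6.23% ± 12.6. On chromosome 18 the arms stood at 49.6% ± 8.24 for 18p (n = 55) and 45.2% ± 9.32 for 18q (n = 54). Its ends again differed, with 82.1% in the last 3 Mb of 18p and 22.1% in those of 18q. The 3 Mb at the end of 13q stood at 84.6%. These contrasts between segments were not tested.

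Windows differed in how much the cells varied. In windows of 10 Mb, the stretch between 100 and 110 Mb of chromosome 13 was 2-copy in 9.85% ± 6.08 of its bins, with 0.4 and 26.1% as the lowest and highest cell. The stretch between 30 and 40 Mb of the same chromosome was high on average, at 82.1% ± 16.1, but ran between 35.2 and 100% over cells. Among windows with more than 100 bins, the widest spread was between 60 and 70 Mb of chromosome 13, with an SD of 21.1, a lowest value of 4.8% and a highest of 100% in cell 80, a cell with a score of 63.5%. The next cell had 87.6% there. Between 60 and 70 Mb of chromosome 4 the SD was 20.2 and the values ran between 0.862 and 77.4%.

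Genes on the gene-poor chromosomes took a smaller share of the spliced RNA, and a slightly larger share of the unspliced RNA, than their share of all genes. They gave 8.00% ± 0.350 of the spliced TPM (7.04 to 9.13% over 55 cells), with 4.50, 1.85 and 1.65% from chromosomes 4, 13 and 18. The same genes were 11.2% of all genes, whether expressed or not, and their bins 15.4% of all bins. Of the protein-coding genes they held 1293, against 13809 on the other chromosomes. Genes with a spliced value above 0 in more than 50% of the cells numbered 923, against 9447, with medians of 19.2 and 18.5 TPM. In unspliced counts they gave 12.3% ± 1.16, with 11.5% ± 0.775 in cells numbered above 65 and 13.1% ± 0.965 in cells up to 65.

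Expression, here a value above 0 in more than 50% of the cells, was found for 923 of the 5106 genes and for 757 of the 1293 protein-coding ones. It was more frequent among genes replicated early: 555 of 2210 early-S genes (25.1%), 279 of 1744 mid-S genes (16.0%) and 89 of 1152 late-S genes (7.73%). Expressed genes also had higher spliced RNA when early. Their median levels were 22.3 TPM for early-S, 15.8 TPM for mid-S and 8.03 TPM for late-S genes. The early-S median was above the late-S median in 55 of 55 cells, by 0.362 ± 0.134 on the log10(TPM + 1) scale, against 0.394 ± 0.0704 on the other chromosomes. With only genes above 0 in more than 80% of the cells the difference was 0.116. On chromosomes 4, 13 and 18 it was 0.238, 0.306 and 0.624, with the early-S median the higher in 51, 54 and 54 cells.

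Unspliced RNA showed the same order in counts, with medians of 3.47, 2 and 1 for 601 early-S, 407 mid-S and 215 late-S genes. The early-S median was higher in 55 of 55 cells, by 0.298 ± 0.106 on the log10(count + 1) scale. These counts are not per length. When they were divided by gene length in kb the difference was 0.0152, but the 1 added before the logarithm was kept. That presses small values per kb together, so this value does not show how the difference depends on length.

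**Figure D4:**
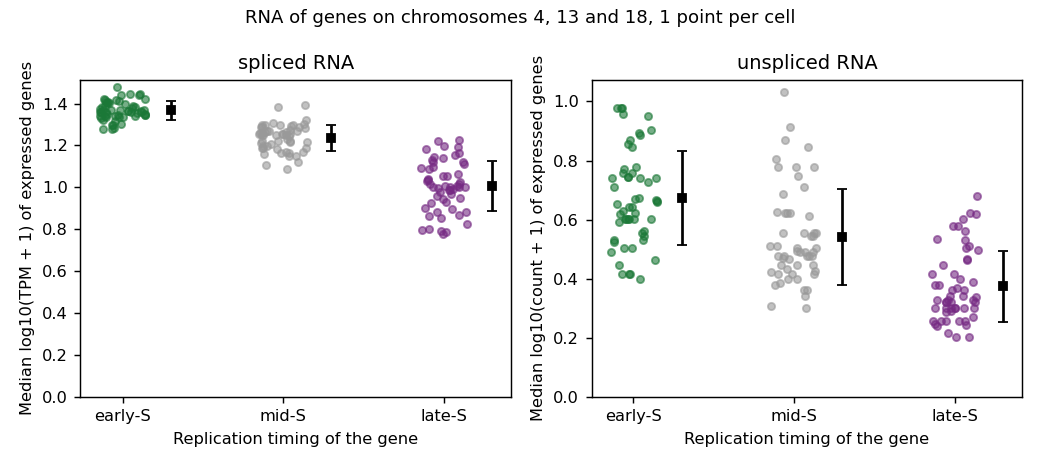
Median level of expressed genes of chromosomes 4, 13 and 18 in each of 55 cells, by RT class, for spliced RNA as log10(TPM + 1) and unspliced RNA as log10(count + 1), with squares and bars for the mean and SD over cells. The early-S median lies above the late-S median in 55 of 55 cells in both kinds of RNA.

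Ribosomal protein genes led the early class on chromosomes 4 and 18. On chromosome 4, RPS3A had 1167, 2488 and 3847 TPM (lowest, median and highest of 55 cells) and was 2-copy in 94.5% of the cells, and RPL9 had 1110, 2071 and 4630 TPM and was 2-copy in all. Another ribosomal protein gene, RPL34, had a median of 1320 TPM at an RT of 87.3%. The processed pseudogene AC004057.1, antisense to ANK2, had a median of 864.6 TPM at an RT of 80%. On chromosome 13 the first was TPT1, the translationally controlled tumour protein, with 642.2, 1372 and 3224 TPM at an RT of 100%. It was followed by the DNA-bending chromatin protein HMGB1 (median 786.5 TPM, RT 85.5%), the nuclear import receptor IPO5 (415.3 TPM, RT 100%) and the membrane protein ITM2B (231.1 TPM, RT 87.3%). On chromosome 18, RPL17 had a median of 1434 TPM at an RT of 100%. TYMS, thymidylate synthase, which makes the thymidine nucleotide for DNA synthesis, had 124.1, 487.9 and 1087 TPM at an RT of 87.3%. The myosin light chain gene MYL12B had a median of 304.5 TPM at an RT of 100%, and TXNL4A 212.2 TPM at an RT of 87.5%. Medians of most of these differed between the library sets, as for RPS3A with 3189 TPM in cells above 65 and 1702 TPM in cells up to 65. Ribosomal protein and chromatin genes such as these have near-identical copies elsewhere, so their values are uncertain.

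Some late genes were expressed while at 1 copy in most cells. WDR1, which helps to disassemble actin filaments, had 50.7, 133.2 and 293.7 TPM and was 2-copy in 0 of 54 called cells. FAT1, an atypical cadherin, had 24.9, 99.8 and 351.6 TPM at an RT of 5.45%, ABCE1, a ribosome recycling factor, a median of 97.6 TPM at 11.1%, and CRMP1, a cytoskeletal regulator of neurons, 79 TPM at 12.7%. On chromosome 13, ARGLU1, a nuclear protein of splicing and transcription, had 51.4, 137.4 and 392.4 TPM at an RT of 7.41%. TPP2, a large cytosolic peptidase, followed at a median of 43.8 TPM and an RT of 20.0%, ahead of TEX30 at 40.1 TPM and BIVM at 30.3 TPM. These were above 0 in 53, 49 and 54 of 55 cells. On chromosome 18, CNDP2, a cytosolic dipeptidase, had 2.92, 89.5 and 226.5 TPM at an RT of 5.56%, with the lowest value in cell 91 and 26.2 TPM as the lowest of the others. The lipid flippase gene ATP9B had a median of 62.7 TPM at an RT of 22.2%, TIMM21 of the mitochondrial import machinery 60.5 TPM at 1.89%, and EPB41L3 of the membrane skeleton 54.9 TPM at 9.09%, each above 0 in 54 of 55 cells. These levels were below those of the leading early genes of the same chromosome but above the median of expressed early-S genes. ABCE1 overlaps ANAPC10, CRMP1 overlaps EVC, and BIVM and ERCC5 overlap their readthrough gene, so reads of these pairs may not be told apart.

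Gene lists by function, counted without a test, split these chromosomes. Across all their genes 18.1% were expressed, and 58.5% of the protein-coding ones. All 17 genes of replication and DNA repair were expressed, 11 of them early-S, 4 mid-S and 2 late-S, led by TYMS, by RFC3 (median 133.4 TPM) and RFC1 (72 TPM), subunits of the clamp loader, and by SMCHD1 (60.3 TPM). The late members were ERCC5 (RT 7.27%) and LIG4, the ligase of end joining (RT 12.7%). Of 28 cell division genes 27 were expressed, 18 of the 28 early-S, with CCNI at 249.6 TPM, the kinetochore subunit NDC80 at 171.3 TPM, the checkpoint protein MAD2L1 at 156.7 TPM and the condensin subunit NCAPG at 140.2 TPM, and ANAPC10 as the late member (RT 9.80%).

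Of 22 chromatin and nuclear RNA-binding genes 21 were expressed and 14 were early-S, with the histone variant H2AZ1 at 1044 TPM, HMGB1, HMGB2 at 502.4 TPM and HNRNPD at 454.1 TPM. Translation and ribosome genes were expressed in 18 of 20 cases, with 13 early-S, and genes of mitochondria and metabolism in 23 of 27, with 19 early-S, led by ATP5F1A at 806.7 TPM, the ubiquitin hydrolase UCHL1 at 618.7 TPM, ATP5ME at 384.1 TPM and ACAA2 at 189.0 TPM.

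The lists of tissue-specific genes were mostly not expressed in spliced RNA, and their timing varied. Of 56 genes on the list of clustered tissue-specific genes 3 were expressed, ADH5 at 206.2 TPM and the desmosomal cadherins DSG2 at 32.7 TPM and DSC2 at 12.7 TPM. The list was made by families of neighbouring genes, so a member such as ADH5 need not be tissue-specific itself. Of these 56 genes 41 were mid-S and 4 late-S. ALB, for serum albumin, was above 0 in 2 cells and AFP, for alpha-fetoprotein, in 0 cells, while both loci had an RT of 92.7%. Of 43 long neuronal and adhesion genes 10 were expressed, with CDH2, N-cadherin, at 81.4 TPM, LDB2 at 80.2 TPM, DACH1 at 24.7 TPM and DLGAP1 at 20.4 TPM, and 16 were late-S. DCC, the netrin receptor, was 2-copy in 0% of the cells and had TPM above 0 in 3 cells, while its unspliced counts were above 0 in 55 cells (1.1 to 64.4, median 7.55). Developmental regulators and receptors were in between, with 30 of 47 expressed and 18 early-S, 20 mid-S and 9 late-S. SMAD4 stood at 76.7 TPM, SMAD2 at 46.8 TPM, TCF4 at 44.7 TPM and LEF1 at 24.5 TPM, and IRS2 was late with an RT of 1.82%.

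Genes whose copy state differed between cells allowed RNA to be compared between 2-copy and 1-copy cells. This left mid-S genes almost throughout, as neither state was allowed in more than 80% of the called cells. In spliced RNA 311 genes of chromosomes 4, 13 and 18 were tested. At an unadjusted Wilcoxon rank-sum p under 0.05, 27 (8.68%) were higher in 2-copy cells and 6 (1.93%) higher in 1-copy cells, against a background over all 2455 tested genes of 5.82 and 2.73%. By chromosome, these were 14 and 2 of 173 genes on chromosome 4, 4 and 2 of 66 on chromosome 13, and 9 and 2 of 72 on chromosome 18. The median was higher in 2-copy cells for 192 of the 311 genes (61.7%), against 56.4% of all tested genes. No gene passed an adjusted p of 0.05 (Wilcoxon test with Benjamini-Hochberg adjustment over 2455 genes, lowest adjusted p 0.296 for these chromosomes and 0.234 for all), so the genes named next are those with the lowest p.

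ZNF330, a zinc finger protein, had a median of 36.2 TPM in 38 cells at 2 copies and of 4.81 TPM in 17 cells at 1 copy (difference 2.23 ± 0.626 on the log2(TPM + 1) scale, SE, permutation p = 0.0007, adjusted p = 0.296). It was at 0 in 3 of the 2-copy and 7 of the 1-copy cells, and the ranges overlapped, with highest values of 156.3 and 72.3 TPM. H2AZ1 had 482.0, 1118 and 2078 TPM (lowest, median and highest) in 30 cells at 2 copies, against 536.5, 881.2 and 1393 TPM in 25 cells at 1 copy (0.41 ± 0.123, permutation p = 0.00183, adjusted p = 0.360). Its medians were 1561 and 1050 TPM in cells above 65 and 1016 and 703.4 TPM in cells up to 65, so that the direction was the same in each set and the sets differed in level. TAF4B, a subunit of a TFIID complex, had a median of 8.99 TPM at 2 copies and 0 at 1 copy, where 14 of 25 cells were at 0. Its call was lost with cells scored 45 to 65% (Wilcoxon p = 0.101). RPL21 had a median of 1275 TPM in 2-copy and 1061 TPM in 1-copy cells, and MICU2, a gatekeeper of the mitochondrial calcium uniporter, 56.4 and 30.7 TPM.

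In the opposite direction, GAB1, an adaptor protein of receptor tyrosine kinases, had a median of 9.56 TPM in 32 cells at 2 copies and of 33.7 TPM in 23 cells at 1 copy (-1.85 ± 0.460, permutation p = 0.00076, adjusted p = 0.296). SAP30 of the Sin3 histone deacetylase complex had 21.2 TPM at 2 copies and 45.4 TPM at 1 copy, FHOD3, a formin, 4.99 and 20.4 TPM, MPPE1 15.7 and 41.2 TPM, and SLC46A3, a lysosomal transporter, 0 and 9.0 TPM. The calls of MPPE1 and SLC46A3 were lost on residuals of the replication score (p = 0.098 and 0.0699), and that of SLC46A3 also less the mean of the library set (p = 0.108). With cells scored 45 to 65% the calls of SAP30, MPPE1 and SLC46A3 were lost (Wilcoxon p = 0.0566, 0.153 and 0.0864). The 2-copy and 1-copy cells overlapped for GAB1, SAP30, FHOD3, MPPE1 and SLC46A3 alike. FHOD3 overlaps TPGS2 and MPPE1 overlaps GNAL, and it is not known here whether counting used strand, so their values are uncertain.

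From the lists, CCNA2 (112.4 TPM at 2 copies, 88.4 TPM at 1 copy), MAD2L1 (180.6 and 140.9 TPM), H2AZ1, PABPC4L (13.3 and 6.59 TPM), RPL21, SMAD2 (51.4 and 30.1 TPM) and DSC2 (14.7 and 8.83 TPM) were among the 27 genes higher in 2-copy cells, and SAP30 among the 6 higher in 1-copy cells. No gene of the lists of replication and repair, mitochondria and metabolism, or long neuronal genes was among these genes, although only 4, 8 and 5 of their members were tested. In unspliced RNA RPL21 was the only list member with a Wilcoxon p under 0.05, where 1 gene of its list was tested, 7 of cell division and 15 of the long neuronal list. By edgeR's quasi-likelihood test with DESeq2 size factors, RPL21 was not called (p = 0.246), and CENPC, a centromere protein of the cell division list, passed the adjusted threshold with a lower level at 2 copies (log2 fold change -2.94, adjusted p = 0.0392). CENPC did not pass it with TMM, and its median over the cells was 0.8 unspliced counts.

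In unspliced RNA 457 genes were tested, with 16 (3.50%) higher at 2 copies and 14 (3.06%) higher at 1 copy, against a background over 3159 genes of 3.77 and 2.94%. These shares were close to the background. The counts are not scaled, and after scaling to 1 total per cell 22 and 13 genes were called, against 142 and 83 of all 3159. The median was higher in 2-copy cells for 223 of 457 genes (48.8%), against 51.6% of all. No gene passed the adjusted threshold by the Wilcoxon test (lowest adjusted p 0.43). By edgeR's quasi-likelihood test with Benjamini-Hochberg adjustment, 26 of the 457 genes passed it, 17 of them higher at 2 copies, among 177 of 3159 genes. Among the lowest adjusted p by edgeR with TMM was that of CDH20, a cadherin (log2 fold change 4.80, adjusted p = 0.000576), higher at 2 copies. ARSJ, an arylsulfatase (-2.87, adjusted p = 0.0018), and STARD6 (-5.20, adjusted p = 0.0018) were lower at 2 copies. These genes were named after their values were seen. CDH20 and ARSJ had no Wilcoxon p under 0.05, and STARD6 had medians of only 0.2 counts at 2 copies and 0.6 counts at 1 copy. Of the genes with the lowest Wilcoxon p named next, OACYLP passed the adjusted threshold by edgeR with TMM (adjusted p = 0.0146), while USP12 and RP11-350A18.2 had an unadjusted p of 0.011 and 0.0496 and the others were above 0.05.

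DCAF16, a substrate receptor of a ubiquitin ligase, had a median of 193 counts in 38 cells at 2 copies and of 64 counts in 17 cells at 1 copy (2.56 ± 0.940 on the log2(count + 1) scale, SE, permutation p = 0.00506, adjusted p = 0.518). RBM26, an RNA-binding protein of nuclear RNA decay, had 165.5 and 16.5 counts, and USP12, a deubiquitinase, 25.6 and 0.95 counts. The antisense transcript AC092597.3 had 34.5 and 7.5 counts, and a processed pseudogene at chr4:67718996-67724262 had 13.8 and 3.62 counts. Values of these overlap with other genes: AC092597.3 lies within ATP10D, and RBM26 and USP12 each overlap an antisense transcript. The call of the pseudogene was lost with cells scored 45 to 65% (Wilcoxon p = 0.263).

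Lower unspliced counts at 2 copies were found for RP11-350A18.2, a lncRNA that overlaps FOXO1 and LINC00598, with a median of 18 counts in 37 cells at 2 copies and of 119.9 counts in 18 cells at 1 copy (-2.46 ± 0.762, permutation p = 0.00271, adjusted p = 0.43). In cells above 65 its medians were 66.6 and 117.8 counts, and in cells up to 65 they were 0.8 and 123.8 counts. OACYLP had 0 and 0.6 counts, RP11-19D22.1 15.6 and 25.5 counts, MYCBP2-AS1, which overlaps MYCBP2, 84.3 and 143.2 counts, and IMPA2, an inositol monophosphatase, 10 and 62.1 counts, where the call was lost on residuals of the replication score (p = 0.0708) and less the mean of the library set (p = 0.0598). With cells scored 45 to 65% the calls of MYCBP2-AS1 and IMPA2 were lost (Wilcoxon p = 0.0919 and 0.0749).

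Calls in both kinds of RNA were found for 4 genes, all higher at 2 copies: DCAF16, LCORL, RBM26 and RPL21. In spliced RNA, the medians of DCAF16 were 45.6 TPM in 2-copy and 32.2 TPM in 1-copy cells. LCORL, a nuclear corepressor-like protein, had 18.7 TPM at 2 copies and 9.0 TPM at 1 copy in spliced RNA and 290.1 and 84.2 counts in unspliced RNA. It overlaps NCAPG on the opposite strand. RBM26 had 54.4 and 38.5 TPM, and RPL21 had 7 and 0 unspliced counts. RPL21 overlaps SNORD102 and SNORA27 on the same strand, so its reads may not be told apart from theirs. The call of LCORL was lost in both kinds of RNA on residuals of the replication score (spliced p = 0.277, unspliced p = 0.474), and that of RBM26 in spliced RNA less the mean of the library set (p = 0.0638). Less that mean, the unspliced call of LCORL was also lost (Wilcoxon p = 0.0767). With cells scored 45 to 65% LCORL lost its spliced and unspliced calls (Wilcoxon p = 0.146 and 0.117), and RBM26 its spliced call (Wilcoxon p = 0.0966). By edgeR with TMM none of the 4 had an unspliced p under 0.05 (0.124 to 0.253). DCAF16 and LCORL are near each other on chromosome 4, at chr4:17800655-17810758 and chr4:17841199-18021876.

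A pooled estimate used all tested genes at once. In a linear model with gene and cell terms, spliced RNA of the 311 genes was higher at 2 copies by 0.141 on the log2(TPM + 1) scale (SE 0.0232, clustered over 55 cells, a ratio of 1.10), and that of 2144 genes elsewhere by 0.0633 (SE 0.0135). The difference of 0.0778 had a 95% interval of 0.0282 to 0.127. It was 0.0544 (-0.0257 to 0.135) in the cells numbered up to 65 alone, 0.0599 (-0.0159 to 0.136) in those above 65 alone and 0.0498 without chromosome 4, and in these fits its interval included 0. By chromosome the spliced difference was 0.163 on chromosome 4, 0.0391 (SE 0.0604) on chromosome 13 and 0.186 on chromosome 18.

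In unspliced RNA the pooled difference was 0.106 (SE 0.0302) for 457 genes and 0.107 (SE 0.0151) for 2702 genes elsewhere, and they differed by -0.00115 (95% interval -0.0698 to 0.0675). By chromosome it was 0.101, 0.0309 and 0.224 on chromosomes 4, 13 and 18. Differences between the chromosomes were not tested.

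**Figure D5:**
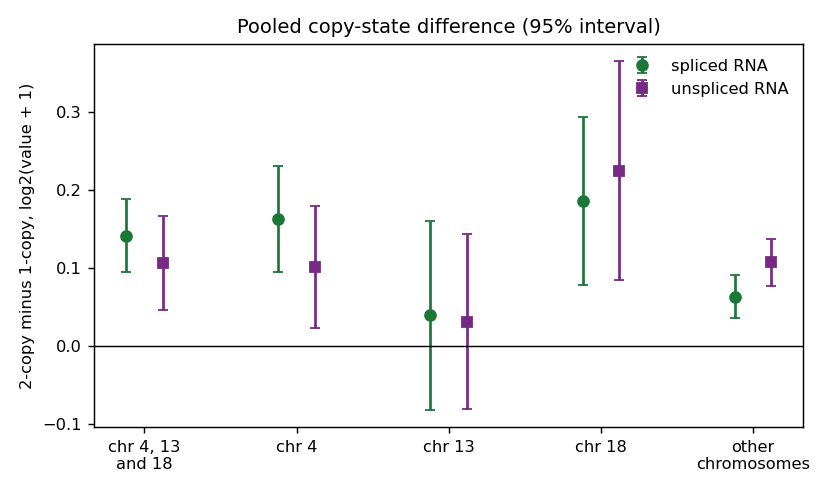
Pooled difference between 2-copy and 1-copy cells, with 95% intervals clustered by cell, for genes of chromosomes 4, 13 and 18 jointly and singly and for genes on other chromosomes, in spliced RNA on the log2(TPM + 1) scale and unspliced RNA on the log2(count + 1) scale. In spliced RNA the gene-poor chromosomes stand at 0.141 and the others at 0.0633, and in unspliced RNA at 0.106 and 0.107.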

How the data were processed

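The DNA library and the RNA library that share a cell number stand for 1 cell. The authors aligned DNA reads to hg38 with BWA (the submitters' processing notes give 0.7.17-r1188) and used AneuFinder to call 40-kb bins 1-copy or 2-copy. Blacklisted regions and chromosomes 1, 15 and X were left out. The deposited state is coded as a score per bin and gene: 2-copy, 1-copy or no call. RNA was counted by the authors with the ramdaq pipeline. Spliced RNA is deposited as TPM of exon reads at a common total. Unspliced RNA is deposited in estimated counts, which need not be whole and were made by the authors as gene-body minus exon reads with negative values set to 0, and the table is titled TPM although its values are not scaled. RNA was taken from the supernatant, which is mainly cytoplasmic, so nuclear RNA may be under-represented.

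The score of a cell is the percent of called bins that are 2-copy. RT classes divide the range of 0 to 100% into 9 equal parts, early-S above part 7 and late-S up to part 2. Within-cell differences and library sets were tested by two-sided permutation (100000 resamples). The copy-state test was the Wilcoxon rank-sum test (normal approximation with ties, p adjusted by Benjamini-Hochberg over all genes tested on all chromosomes, with a permutation p for named genes), over genes above 0 in more than 50% of cells, called in at least 50%, with neither state in more than 80%. The pooled model used log2(value + 1), a scale that understates changes of low genes. Unspliced counts were rounded for edgeR 4.0.16 (limma 3.58.1, R 4.3.3), with TMM or DESeq2 size factors as alternatives. Other steps used Python 3.11.15, numpy 2.4.6, scipy 1.17.1, pandas 2.3.3 and matplotlib 3.10.9. The tests were also run on simulated data, with results not reported here. The simulated unspliced counts used the dispersion trend that edgeR fitted to these data, so they cannot show how edgeR behaves on counts of another distribution.

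The genes named are, for each chromosome, the 4 with the highest median TPM among expressed early-S and among expressed late-S genes, the 5 with the lowest p in each direction and kind of RNA, those called in both kinds, the longest runs with their expressed genes, and up to 4 examples per list. List members not expressed, list genes called, and genes shown for cell 91 were named after their values were seen. Bin and gene coordinates are 1-based hg38, and 5100 of 5106 genes had a biotype in the reference annotation. The members, lists and tests were chosen with earlier results of these data known. The analyses without cell 91 and the pooled fits within each library set were added after seeing the data. The 5 G1 libraries and 7 of the mid-S cells were not analysed here. Some of the marker genes examined are not reported here.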

Additional observations from a re-analysis of the deposited data

How the results depend on the processing

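Limits were these. Bins share cells and neighbours, copy state follows the progress of a cell, the library sets differ in score and RNA, and depth behind a copy call is unknown. Of the values that answer a comparison, 135 were unchanged, 9 lost the threshold, 6 reversed and 15 moved. For differences, unchanged means the same direction and side of the threshold. For counts of genes, RNA levels by class and bin shares it means within a set range of the main value, and moved means outside it. Of values for single genes, 236 kept direction and side of the threshold, 37 lost and 6 gained the threshold and 2 reversed. The causes were not tested, except where named.

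With only bins called in every cell, which leaves 18p alone because cell 91 has no call on 18q, chromosome 13 minus chromosome 18 was 0.488 and chromosome 4 minus chromosome 18 was -1.69. Chromosome 13 minus the other chromosomes was -1.13 without chromosomes 17, 19 and 22 and -1.43 in cells up to 65, and chromosome 4 minus chromosome 18 was 1.91 in cells above 65, none of them past the threshold. With early-S over 80% and late-S under 20%, the shares of early-S and late-S bins were 27.8 and 29.8%. The early-S minus late-S level was 0.116 in spliced RNA with genes above 0 in over 80% of cells. In unspliced RNA it was 0.585 with that filter and 0.421 at a pseudocount of 0.1. Per kb it was 0.0152, where the added 1 presses small values together. Without a filter it was 0 in both, a value that cannot show a difference. Only 25.1% of early-S and 7.73% of late-S genes were expressed in spliced RNA, and 27.2 and 18.7% in unspliced RNA. With cells scored 45 to 65%, 3 of 279 genes were higher at 1 copy in spliced RNA, against 47 of all 2181. In unspliced RNA 9 of 297 genes were higher at 1 copy with the filter of over 80% of cells, against 62 of all 1941. With that of at least 20%, 30 of 686 were higher at 2 copies, against 182 of all 4661. By edgeR at an unadjusted p under 0.05, 46 and 30 of 457 genes were higher at 2 copies and at 1 copy with TMM. Over all 3159 genes these were 314 and 239. With DESeq2 size factors they were 42 and 32, against 303 and 259 of all. The rank difference reversed for USP12 in spliced RNA with all cells (0.237) and for MPPE1 in unspliced RNA with cells scored 45 to 65% (1.58), both without a call. The pooled spliced difference from other genes lost its threshold without chromosome 4 (0.0498), with cells scored 45 to 65% (0.0515), in cells up to 65 (0.0544) and in cells above 65 (0.0599). The pooled unspliced difference from other genes, near 0, turned positive with the filter of over 80% (0.0270), without chromosome 4 (0.0187), without chromosome 13 (0.0248), with all cells (0.00175) and in cells up to 65 (0.00206), where the unspliced value of the gene-poor chromosomes was 0.0773 and no longer past the threshold.

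Between the groups of the labels no paired analysis was possible because the numbers they share join the DNA and RNA libraries of 1 cell. These are 2 measurements and not groups that were compared. Comparisons between chromosomes were made within cells.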
